A study of Mus musculus with 3 samples.

Results

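The genes described here are the mouse Bcl2 family, caspases and death regulators: 34 genes taken by symbol from a fixed list, out of 41388 annotated features in the deposited tables. All 34 were found, and every one carries a role in cell survival or cell death. They comprise 4 pro-survival Bcl2 proteins, 3 pore-forming effectors, 8 BH3-only proteins, 5 caspases, 3 apoptosome and released mitochondrial proteins, 3 inhibitors of apoptosis, 4 genes of the p53 family with its regulator Mdm2, 3 death receptors and 1 gene of axon degeneration. They were measured by RNA sequencing in 3 libraries (D, B and C) of cells sorted from dorsal root ganglia (DRG) of C57BL/6 embryos of mixed sex at 12.5 days post coitum. Library D pooled 60 ganglia from 3 embryos, library B 340 ganglia from 17 embryos and library C 300 ganglia from 15 embryos, all dissected between segments T11 and S1. In all embryos EGFP marked expression of Ret, which encodes the receptor for GDNF family ligands, and the sort kept all EGFP-labelled cells. The sample labels give the genotype as Tg(Ret-EGFP)SJ/, a transgene, while the series text describes heterozygotes with EGFP placed in the Ret locus, so whether the embryos had 2 working Ret alleles cannot be told apart here. The libraries form a single group with no second genotype, age or treatment, so the questions are which death genes these cells express, at what level within each role, and on which pool a value rests.

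Sensory neurons of the embryonic DRG are made in excess and compete for neurotrophins from their targets, and neurons that lose this support die by the mitochondrial pathway of apoptosis. In that pathway BH3-only proteins sense stress and neutralise pro-survival Bcl2 proteins, which frees Bax and Bak1 to open pores in the outer mitochondrial membrane. Cytochrome c then leaves the mitochondrion, joins Apaf1 in the apoptosome and activates caspase-9, which in turn activates the executioner caspases unless inhibitor of apoptosis proteins hold them. Death receptors on the cell surface reach the caspases through caspase-8, and p53 raises the expression of several BH3-only genes. Sarm1 acts in a separate programme that destroys the axon by consuming NAD.

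The libraries held 20966139 counts in D, 18072199 in B and 11666241 in C. The authors' counts were converted to TPM, a transcript level corrected for gene length and library total, and detection required at least 1 TPM in each of the 3 libraries. A count of 0 was taken to allow up to 3 counts, a limit that covers counting error only. The chi-square per degree of freedom between libraries was 264 for D and B, 318 for D and C and 133 for B and C, so each pool was counted as a separate replicate. Between the pools, edgeR's biological coefficient of variation stood at 0.51 (13182 genes). Neuron markers were abundant: 10 of 10 were detected, with summed levels of 23719 TPM in D, 36971 TPM in B and 29389 TPM in C. Markers of glia and Schwann cell precursors were also present, with 8 of 8 detected and sums of 4764 TPM in D, 3047 TPM in B and 1502 TPM in C, so the sorted pools were not neurons alone. None of 5 endothelial markers was detected. In pooled bulk RNA, fewer cells of a type and less RNA per cell cannot be told apart.

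Of the 34 members, 27 were detected, against a background of 28.7% of all 41388 features. The median of the mean levels was 8.65 TPM over all 34 members. Over the 27 detected members it was 13.8 TPM, close to the 13.6 TPM of all 11896 detected features. The members not detected in every library were Pmaip1, Bik, Casp1, Birc3, Trp63, Trp73 and Fas. Mean levels over 100 TPM were seen for 5 members with unlike roles: the effector Bax, the BH3-only gene Bad, Trp53, the pro-survival gene Bcl2l1 and the executioner Casp6.

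**Figure D1:**
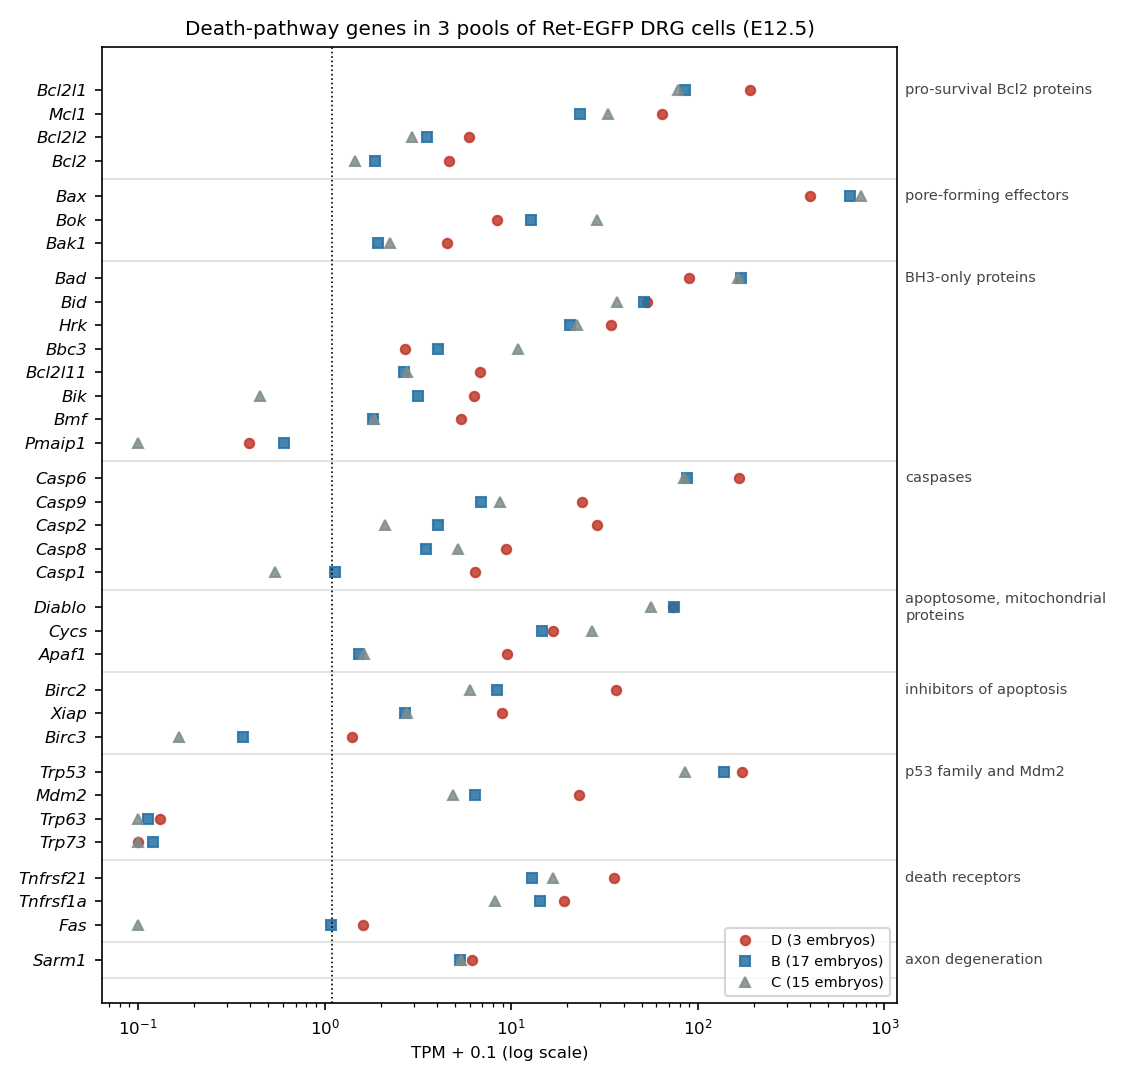
TPM + 0.1 on a log axis of each of the 34 members in libraries D, B and C, grouped by role and ordered by mean within a role, with the detection limit of 1 TPM as a dotted line. Bcl2l1, Bax, Casp6 and Trp53 lie apart from the next gene of their roles, Bax lies to the right of every other member in all 3 libraries, and Trp63 and Trp73 lie at the left edge.

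The start-site sequences of the 3 pore-forming effectors are printed because these genes, all detected, differed widely in level despite their shared role. Each is a RefSeq window on GRCm38.p6 of 300 bases, from 250 before to 50 after the annotated start, written 5′ to 3′ on the gene's strand, with matches to the GC box GGGCGG on either strand in capitals. Bax is at chr7:45466849-45467148 (minus strand), Bak1 at chr17:27028578-27028877 (minus strand) and Bok at chr1:93685325-93685624 (plus strand).
Bax: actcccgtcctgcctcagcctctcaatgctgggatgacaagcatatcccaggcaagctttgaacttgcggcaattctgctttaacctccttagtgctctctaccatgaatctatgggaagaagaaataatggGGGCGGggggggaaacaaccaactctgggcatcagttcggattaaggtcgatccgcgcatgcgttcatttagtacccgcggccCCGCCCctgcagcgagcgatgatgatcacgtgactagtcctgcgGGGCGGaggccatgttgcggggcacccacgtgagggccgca
Bak1: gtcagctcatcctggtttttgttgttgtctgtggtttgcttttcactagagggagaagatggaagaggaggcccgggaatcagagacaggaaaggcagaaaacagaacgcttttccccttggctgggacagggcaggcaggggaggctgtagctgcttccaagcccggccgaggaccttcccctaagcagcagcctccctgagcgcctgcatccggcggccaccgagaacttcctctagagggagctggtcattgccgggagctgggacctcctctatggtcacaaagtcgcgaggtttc
Bok: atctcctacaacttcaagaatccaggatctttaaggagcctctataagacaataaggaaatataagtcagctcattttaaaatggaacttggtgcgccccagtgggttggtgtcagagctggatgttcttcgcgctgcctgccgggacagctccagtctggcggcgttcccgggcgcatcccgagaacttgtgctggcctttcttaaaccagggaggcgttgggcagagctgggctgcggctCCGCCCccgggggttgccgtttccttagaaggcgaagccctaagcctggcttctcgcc

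The Bax window held 3 GC boxes and 19 CpG dinucleotides, the Bok window 1 GC box and 16 CpG, and the Bak1 window 0 GC boxes and 11 CpG. Among all members, 31 had a RefSeq window that was used and some had several, giving 43 windows. Of these, 65.1% held a GC box against 35.7% of all 32851 windows. Windows on chromosome 18, where Pmaip1 lies, were left out for the members but not for the set of all windows. The CCAAT box (letters CCAAT, both strands) was in 32.6% of member windows and 37.4% of all windows. The TATA box (letters TATAA, both strands) was in 18.6% of member windows and 24.9% of all windows. Member windows had a median of 20 CpG, against 7 in all windows. Among the effectors the gene with the most GC boxes was the most abundant, but among the pro-survival genes the single Bcl2 window held 7, whereas none of the 3 windows of the more abundant Bcl2l1 held any. A match is a description of letters, not of factor binding.

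Among the pro-survival genes, Bcl2l1 was the most abundant in every library and Bcl2, the founding member, the least. Bcl2l1 (chr2:152780668-152831728, minus strand) encodes Bcl-xL, which is needed for the survival of newborn neurons. It measured 190 TPM in D, 85.6 TPM in B and 78.5 TPM in C, a mean of 118 ± 62.3 TPM (SD, n = 3), and supplied 71.6% ± 3.54 of the transcripts of its role. Mcl1, a short-lived pro-survival protein of dividing and differentiating cells, came next at 64.3 TPM in D, 23.4 TPM in B and 32.9 TPM in C. Bcl2l2, which encodes Bcl-w, measured 5.87 TPM in D, 3.43 TPM in B and 2.84 TPM in C. It shares 13.3% of its counted bases with the same-strand feature Gm20521, which had 0 counts in every library. Bcl2 (chr1:106538178-106714274, minus strand) measured 4.56 TPM in D, 1.76 TPM in B and 1.35 TPM in C, from 322, 145 and 74 counts over a long gene. The order of these genes was the same in all 3 pools, and every step in it was larger than the SD between pools.

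Levels were compared within a library as log2 ratios of TPM + 0.1, so that depth cancels. Bcl2l1 exceeded Bcl2 by 5.35 in D, 5.53 in B and 5.76 in C on the log2 scale, a mean of 5.55 ± 0.21 (SD, n = 3) or 46.7-fold. Mcl1 over Bcl2l1 averaged -1.56 ± 0.31, and Bcl2l2 over Bcl2l1 averaged -4.78 ± 0.20. On TPM as computed, these pro-survival ratios had the smallest SDs of the 10 ratios computed. This ranking did not hold with a trend in length and GC removed, a correction described further on. The SDs were then 0.28 for Bcl2l1 over Bcl2, 0.36 for Mcl1 over Bcl2l1 and 0.31 for Bcl2l2 over Bcl2l1. Those of Bax over Bcl2 and Casp9 over Apaf1 were 0.33 and 0.35. In each of the 10, all 3 libraries lay on the same side of equality. The exact two-sided sign-flip test gave p = 0.25 for each, and 0.25 after Benjamini-Hochberg adjustment over the 10, which is the smallest p that 3 libraries allow, so none could pass 0.05.

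The effectors were dominated by Bax, the pore-former that developing sensory neurons of the mouse require to die after loss of neurotrophin. Bax (chr7:45461695-45466898, minus strand) measured 401 TPM in D, 657 TPM in B and 752 TPM in C, a mean of 603 ± 181 TPM (SD, n = 3), and ranked 268 of 41388 features. It made up 96.9% ± 0.89 of effector transcripts. Bok, a relative that acts at the endoplasmic reticulum as well as at mitochondria, measured 8.26 TPM in D, 12.6 TPM in B and 28.7 TPM in C. Bak1, which acts redundantly with Bax in many tissues, measured 4.42 TPM in D, 1.84 TPM in B and 2.15 TPM in C, from 82, 40 and 31 counts. Bak1 shares 14.8% of its counted bases with the opposite-strand gene Ggnbp1. The Bax over Bak1 ratio was 6.47 in D, 8.40 in B and 8.39 in C on the log2 scale, a mean of 7.75 ± 1.11 (SD, n = 3), and it averaged 8.39 without library D.

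Bax alone exceeded the pro-survival genes together in every library. Summed pro-survival TPM stood at 264 in D, 114 in B and 116 in C, while summed effector TPM stood at 414 in D, 671 in B and 782 in C. The log2 ratio of pro-survival over effector transcripts was -0.65 in D, -2.56 in B and -2.76 in C, a mean of -1.99 ± 1.17 (SD, n = 3), and -2.66 without D. Bax is a short gene of 869 counted bases. From CPM, which ignores length, the ratio was 1.63 in D, -0.24 in B and -0.51 in C, so that its sign held in B and C and turned in D, and the mean of 0.30 ± 1.17 (SD, n = 3) rested on library D. Bax over Bcl2 was 6.43 in D, 8.47 in B and 9.02 in C, a mean of 7.97 ± 1.37, and 8.74 without D. The ratio of transcripts says nothing of the ratio of proteins.

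**Figure D2:**
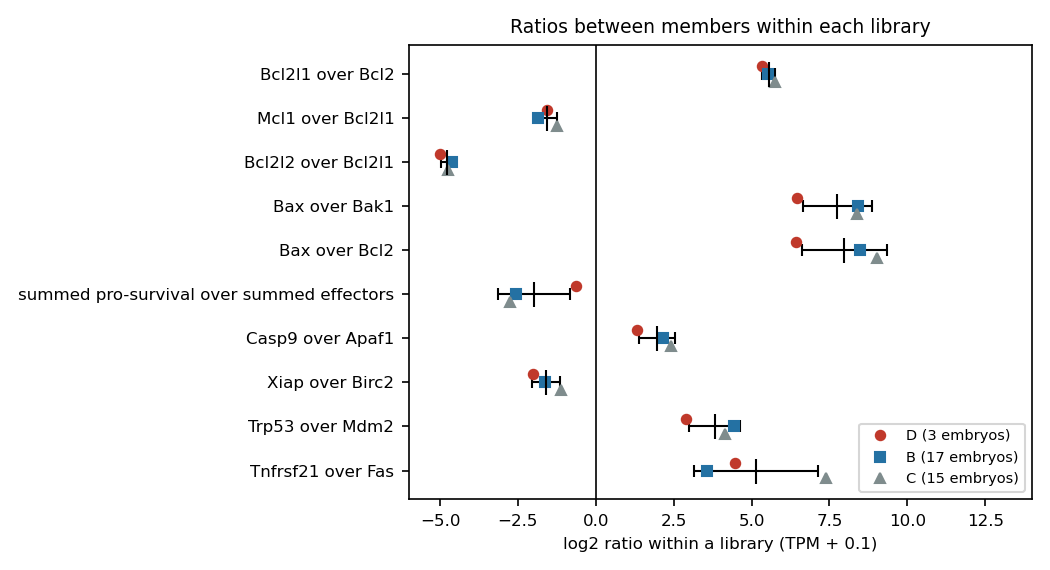
Log2 ratio of TPM + 0.1 between members within each library, for the 10 ratios tested, with points for libraries D, B and C and a bar for the mean ± SD (n = 3). All points of a ratio lie on the same side of 0, the Bcl2l1 over Bcl2 points lie between 5.35 and 5.76, and library D lies nearer to 0 than B and C in the ratios that involve Bax.

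BH3-only genes were uneven. Bad, which binds Bcl-xL unless Akt phosphorylates it, led at 89.3 TPM in D, 170 TPM in B and 164 TPM in C (141 ± 45.2, SD, n = 3) and shares 25.8% of its counted bases with the opposite-strand gene Gpr137. Bid, which caspase-8 cleaves to link death receptors to mitochondria, measured 53.2 TPM in D, 51.7 TPM in B and 36.9 TPM in C, and 17.7% of its bases overlap Bcl2l13 on the other strand. Hrk, a BH3-only gene induced in neurons deprived of nerve growth factor, measured 34.2 TPM in D, 20.5 TPM in B and 22.5 TPM in C. Bad, Bid and Hrk followed in this order in every library, and each step exceeded the SD between pools.

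The BH3-only genes most often linked to p53 and to trophic factor loss stood lower. Bbc3, which encodes Puma, measured 2.58 TPM in D, 3.98 TPM in B and 10.7 TPM in C. Bcl2l11, which encodes Bim, measured 6.69 TPM in D, 2.57 TPM in B and 2.66 TPM in C. Bmf, a BH3-only protein that responds to detachment of cells, measured 5.31 TPM in D, 1.71 TPM in B and 1.75 TPM in C. Bik was seen at 6.19 TPM in D, 3.06 TPM in B and 0.35 TPM in C, and its call in C rests on 2 counts. The order of Bbc3, Bcl2l11, Bik and Bmf was not resolved, since neighbouring genes differed by less than the SD or changed order between libraries. Pmaip1, which encodes Noxa, had 6 counts in D, 12 in B and 0 in C, and the 0 allows up to 0.189 TPM.

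Caspase transcripts came mainly from Casp6, an executioner implicated in axon breakdown. Casp6 (chr3:129901425-129914103, plus strand) measured 167 TPM in D, 87.7 TPM in B and 83.8 TPM in C (113 ± 46.8, SD, n = 3), which was 71.0%, 85.3% and 83.9% of the summed caspase TPM of the 5 members. Casp9, the initiator of the mitochondrial pathway, measured 23.8 TPM in D, 6.76 TPM in B and 8.60 TPM in C. Casp2, an initiator activated in the PIDDosome complex, measured 28.7 TPM in D, 3.94 TPM in B and 2.01 TPM in C, so D held 14.3 times the level of C and the SD of 14.9 TPM exceeded the mean of 11.5 TPM. Casp8, the initiator used by death receptors, measured 9.24 TPM in D, 3.41 TPM in B and 5.07 TPM in C. Casp1, which matures interleukins in inflammatory cells, measured 6.33 TPM in D, 1.04 TPM in B and 0.45 TPM in C, and was above the limit in D and B only. Casp9 exceeded Casp8 in every library, by 1.02 ± 0.31 (SD, n = 3) on the log2 scale, while Casp2 could not be ranked against either beyond its spread.

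**Figure D3:**
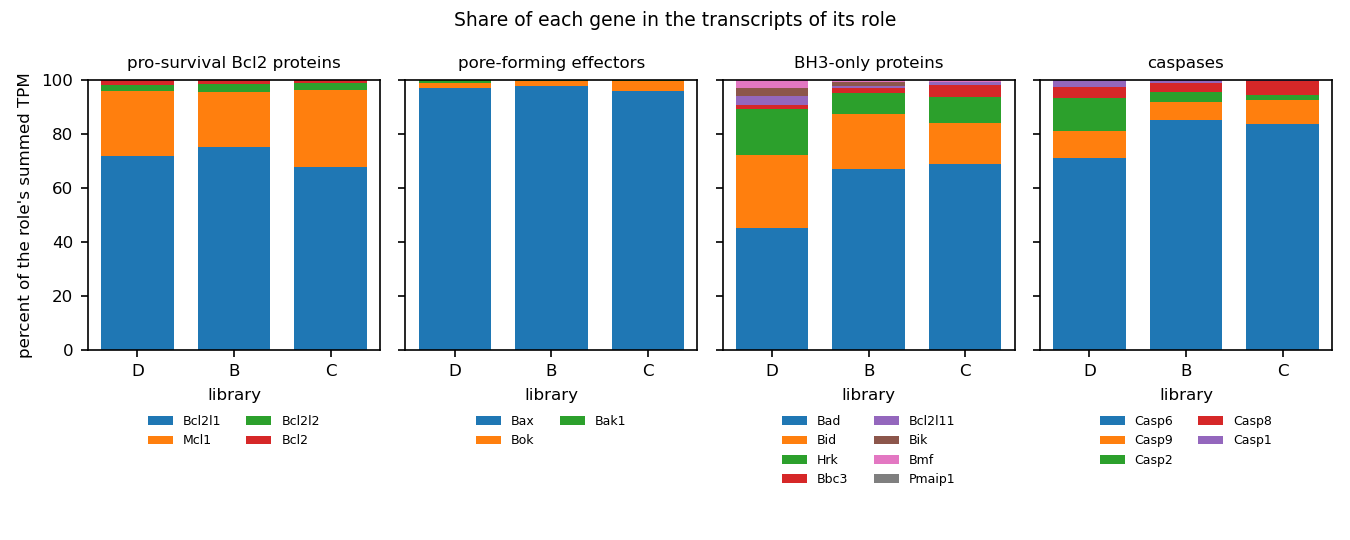
Stacked bars of the percent of a role's summed TPM that each member supplied in libraries D, B and C, for the pro-survival, effector, BH3-only and caspase roles. Bcl2l1, Bax and Casp6 supply most of their roles in every library, while Bad supplies 45.1% of BH3-only transcripts in D, 67.0% in B and 68.7% in C.

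Downstream of the mitochondrion, Diablo was the most abundant gene. Diablo, which encodes Smac, a protein that relieves inhibition of caspases, measured 73.3 TPM in D, 74.4 TPM in B and 56.0 TPM in C and its highest TPM was 1.33 times its lowest. The counted bases of Diablo overlap B3gnt4 on the other strand by 21.5%, and B3gnt4 had 0 counts in every library. Cycs, the cytochrome c gene, measured 16.7 TPM in D, 14.5 TPM in B and 26.9 TPM in C. Its processed pseudogenes make the count uncertain. Apaf1, the scaffold of the apoptosome, measured 9.44 TPM in D, 1.42 TPM in B and 1.53 TPM in C. Casp9 exceeded Apaf1 in every library, by 1.97 ± 0.57 (SD, n = 3) on the log2 scale.

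The inhibitors of apoptosis had lower TPM in B and C than in D, a direction that 26 of the 34 members shared. TPM ran higher in D in general. Against the mean of B and C, 70.1% of the 11896 detected features were higher in D, as were 81.5% of the 27 detected members. Birc2, a ubiquitin ligase of TNF receptor complexes, measured 36.4 TPM in D, 8.26 TPM in B and 5.93 TPM in C. Xiap, the direct inhibitor of caspase-9 and the executioners, measured 8.88 TPM in D, 2.59 TPM in B and 2.66 TPM in C. Birc3, the close relative of Birc2, measured 1.30 TPM in D, 0.27 TPM in B and 0.07 TPM in C. Birc2 stood above Xiap and Xiap above Birc3 in all 3 pools, and Xiap over Birc2 averaged -1.60 ± 0.45 (SD, n = 3) on the log2 scale.

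Of the p53 family, Trp53 alone was detected. Trp53 (chr11:69580359-69591873, plus strand) measured 172 TPM in D, 138 TPM in B and 85.7 TPM in C (132 ± 43.3, SD, n = 3). Trp63, the family member of epithelia, had 2 counts in D, 1 in B and 0 in C. Trp73, which in mouse neurons also gives a shortened form that opposes p53, had 0 counts in D, 1 in B and 0 in C. The zeros allow up to 0.070 TPM of Trp73 in D, 0.090 TPM of Trp73 in C and 0.060 TPM of Trp63 in C. Mdm2, the ubiquitin ligase that p53 induces and that degrades it, measured 23.1 TPM in D, 6.30 TPM in B and 4.77 TPM in C. Trp53 over Mdm2 was 2.89 in D, 4.43 in B and 4.14 in C on the log2 scale, a mean of 3.82 ± 0.82 (SD, n = 3).

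Death receptors were led by Tnfrsf21 and Tnfrsf1a, while Fas was near or below the limit. Tnfrsf21, which encodes the receptor DR6 implicated in pruning of sensory axons, measured 35.2 TPM in D, 12.8 TPM in B and 16.6 TPM in C. Tnfrsf1a, the main TNF receptor with a death domain, measured 19.1 TPM in D, 14.2 TPM in B and 8.04 TPM in C, and did not differ from Tnfrsf21 by more than the spread. Fas had 21 counts in D, 16 in B and 0 in C, that is 1.51 TPM in D and 0.99 TPM in B. In library C, Tnfrsf21 was at least 59.8-fold higher than Fas, with Fas set at the 0.278 TPM that 0 counts allow. With the pseudocount, Tnfrsf21 over Fas was 4.45 in D, 3.57 in B and 7.38 in C on the log2 scale, and the mean without C was 4.01.

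Sarm1, the gene of axon degeneration, measured 6.08 TPM in D, 5.20 TPM in B and 5.27 TPM in C (5.52 ± 0.49, SD, n = 3), its highest TPM being 1.17 times its lowest. On normalised counts, which allow for the shift of TPM in D described further on, the factor for Sarm1 was 1.46. On that scale the narrowest ranges were those of Hrk at a factor of 1.17, Casp6 at 1.21 and Bcl2l2 at 1.23. The widest, among members with a count in every library, were those of Birc3 at 11.6, Bik at 10.4, Casp2 at 8.51 and Casp1 at 8.45. In C, Birc3 and Bik had 2 counts each and Casp1 had 4, so counting error alone makes their factors uncertain. Casp2 had 84 counts there. In the order of all 34 genes by mean TPM, Bax stood apart from Bad in every library. Bad, Trp53, Bcl2l1 and Casp6 could not be told apart beyond their spread. Casp6 exceeded Diablo, Diablo exceeded Bid, and Mcl1 exceeded Hrk, each in all 3 libraries. Below Hrk, no neighbouring pair was separated beyond the spread between pools except Bcl2 over Fas.

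The rest of the death and survival machinery was read from 9 lists of 76 genes, of which 58 were detected. Parp1, a DNA repair enzyme cleaved by executioner caspases, measured 163 TPM in D, 48.2 TPM in B and 36.4 TPM in C. Dffa, the inhibitor of the apoptotic nuclease, measured 88.1 TPM in D, 86.4 TPM in B and 56.9 TPM in C. In the list of other caspases and their substrates 5 of 8 genes were detected, and the inflammatory caspase Casp4, the endoplasmic reticulum caspase Casp12 and the skin caspase Casp14 were not. Among other Bcl2 relatives and mitochondrial partners 9 of 14 were detected, led by the outer membrane channels Vdac1 at 452 ± 148 TPM, Vdac3 at 350 ± 24.4 TPM and Vdac2 at 269 ± 10.9 TPM (SD, n = 3). Bcl2l10, Bcl2l14, Moap1, Bcl2a1b and Bcl2a1d did not reach the limit in every library.

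All 6 further inhibitors of apoptosis and Bag proteins were detected, led by the chaperone partner Bag1 at 79.1 TPM in D, 63.2 TPM in B and 113 TPM in C. Birc5, which encodes survivin and acts in cell division, averaged 61.7 ± 27.7 TPM. Bag3, a co-chaperone of stressed cells, averaged 23.9 ± 13.3 TPM. Ligands and adaptors of death receptors were sparse, with 4 of 10 detected. The adaptors Traf2 at 15.9 ± 6.66 TPM, Tradd at 13.6 ± 14.2 TPM and Fadd at 4.67 ± 2.54 TPM led that list. The mean of Tradd rested on library C, with 29.9 TPM there against 6.67 TPM in D and 4.22 TPM in B.

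Among p53 partners and targets 7 of 8 were detected, led by Ccng1 at 25.8 ± 17.1 TPM, the cell cycle inhibitor Cdkn1a at 25.1 ± 10.2 TPM and Phlda3 at 7.68 ± 8.19 TPM. Perp, a p53 target of epithelia, was below the limit in B. The JNK arm, which relays neurotrophin loss to the nucleus, was detected whole, 10 of 10, and was led by its transcription factor Jun at 94.8 TPM in D, 44.7 TPM in B and 108 TPM in C. The scaffold Mapk8ip1 averaged 23.6 ± 11.5 TPM and the kinase Map2k4 23.4 ± 10.9 TPM. The trophic survival arm was also detected whole, 8 of 8, with the survival kinase Akt1 at 54.8 ± 3.28 TPM and the factor Foxo3 at 8.88 ± 8.69 TPM.

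Of the NAD and axon survival genes, 5 of 6 were detected and Nmnat3 was not. Stmn2, an axonal microtubule regulator that also serves here as a neuron marker, reached 8106 ± 1697 TPM. Nmnat2, the labile NAD enzyme that restrains Sarm1 in axons, measured 151 TPM in D, 36.0 TPM in B and 30.4 TPM in C. Nampt, the enzyme that starts NAD salvage, averaged 16.1 ± 7.85 TPM. In the necroptosis and pyroptosis list, 4 of 6 were detected. Gsdme, a pore-former cleaved during apoptosis, measured 85.8 TPM in D, 21.2 TPM in B and 14.3 TPM in C. Ripk3, the kinase of necroptosis, averaged 6.27 ± 5.87 TPM and the inflammasome adaptor Pycard 5.93 ± 1.59 TPM. Mlkl, the necroptotic pore protein, and the inflammasome sensor Nlrp3 were not detected.

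**Figure D4:**
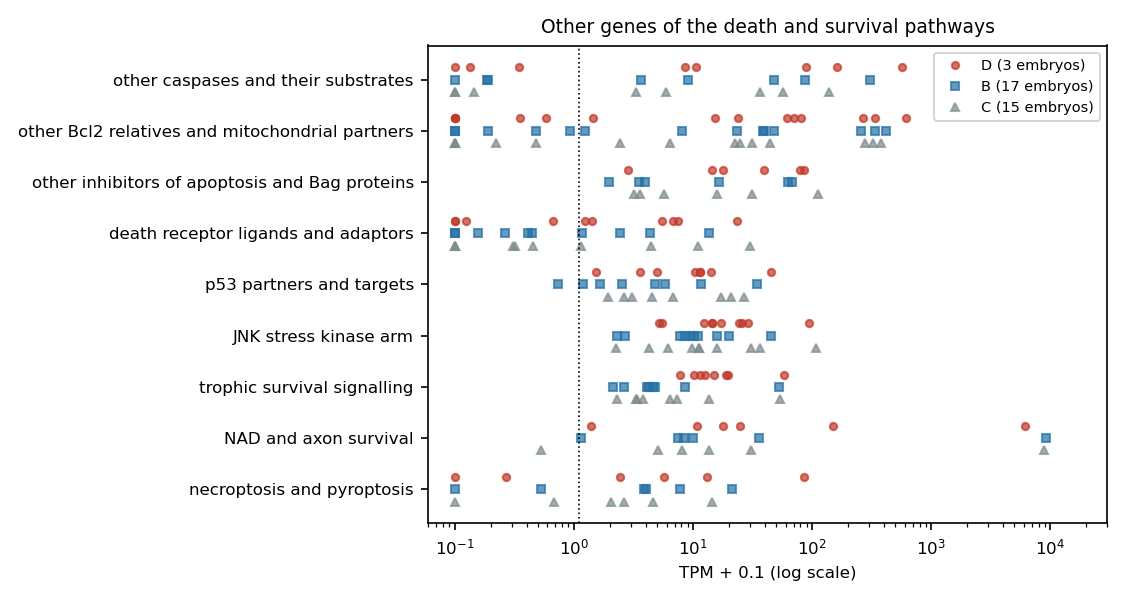
TPM + 0.1 on a log axis of the 76 other death and survival genes, with 1 point per gene and library (D, B, C), by list, and the detection limit of 1 TPM as a dotted line. Every gene of the trophic and JNK lists lies right of the line, whereas 6 of 10 death receptor ligands and adaptors fall short of it in at least 1 library.

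To see which pool a level rests on, each library was set against the other two with edgeR's quasi-likelihood test on counts, with TMM scaling and Benjamini-Hochberg adjustment. Such a fit leaves 1 residual degree of freedom, and the spread of the lone library is taken to equal that of the pair it is set against. TPM could not serve for this, because the median detected feature had 1.53 times as many TPM in D as the mean of B and C. Of 15727 genes tested in D against B and C, 0 passed an adjusted p of 0.05 (0.0%), while 3046 had an unadjusted p under 0.05. DESeq2 called 688 genes. Of the 34 members 32 entered the test, all but Trp63 and Trp73, and 0 passed. An unadjusted p under 0.05 was reached by 9 members, 5 higher and 4 lower, against 19.4% of all genes tested.

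In D, all 4 pro-survival genes, all 5 caspases and all 3 inhibitors of apoptosis lay above both B and C in normalised counts, whereas of the 3 effectors Bax and Bok lay below both and Bak1 above. Of the 8 BH3-only genes, 3 lay above both and 3 below both. Of the 32 members, 19 lay above both other libraries, against 41.8% of genes tested, and 8 lay below both, against 38.9%. The median log2 ratio of D over B and C was 0.46 for the members and -0.02 for all genes tested. By 9 roles, median ratios ranged from 1.66 for the inhibitors of apoptosis to -1.52 for the effectors.

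The members with the smallest p-values in D were Casp2, Apaf1, Bad, Birc2 and Bax. Casp2 had a log2 ratio of 2.58 ± 0.54 (SE) with an adjusted p of 0.169 by edgeR, and was the 1 member that DESeq2 called, with an adjusted p of 0.011. Apaf1 had a log2 ratio of 1.97 ± 0.49 (adjusted p = 0.193 by edgeR) and Birc2 1.66 ± 0.47 (adjusted p = 0.200 by edgeR). Without the filter on low counts, Casp2, Apaf1 and Birc2 passed in the edgeR fit. Mdm2 stood at 1.36 ± 0.47 and Casp1 at 2.35 ± 0.89. On the lower side, Bad had a log2 ratio of -1.61 ± 0.46 and Bax of -1.52 ± 0.44 (adjusted p = 0.200 by edgeR for both). Bok stood at -2.04 ± 0.74 and Bbc3 at -2.22 ± 0.88. DESeq2 gave no adjusted p for 5 of the 32 members in D, so it could not call those. Trp53, Hrk and Tnfrsf1a were near 0 in the edgeR fit, at -0.08, -0.03 and 0.08.

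Gene length moved with these values. Across all genes tested, the log2 ratio of D over B and C had a Spearman rho of 0.40 with counted length and of -0.34 with GC content. The points share libraries and are given as a description. Casp2, Apaf1 and Birc2 have 6986, 9028 and 4580 counted bases, while Bax, Bok, Bad and Bbc3 have 869, 1775, 2007 and 2008. With a smooth trend in length and GC removed, the ratios in D were 1.87 for Casp2, 1.22 for Apaf1, 1.03 for Birc2, 0.76 for Mdm2 and 2.57 for Casp1. Under the same correction Bad stood at -0.58, Bok at -0.37 and Bbc3 at -0.02, and Bax changed sign to 0.37. The pro-survival genes then had a median of 0.19 in place of 0.50, with Bcl2l2 at 0.01, Bcl2 at 0.11 and Mcl1 at 0.27. Bcl2l1, the most abundant of them, hardly moved, at 0.53 in place of 0.51. The median was 0.65 in place of 0.92 for the caspases and 1.03 in place of 1.66 for the inhibitors of apoptosis. Casp6, the most abundant caspase member, rose to 0.65 from 0.26. Other medians moved away from 0, to 0.74 from 0.56 for the death receptors and to -0.30 from -0.23 for the BH3-only genes. That of the apoptosome and released mitochondrial proteins moved to -1.03 from -0.53. Over the 32 members tested the median was 0.37 in place of 0.46, against -0.04 in place of -0.02 for all genes.

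Markers of other cells moved with library D as well. Of 8 glial markers 6 lay above both B and C. Markers of dividing cells, 6 of 6 detected, summed to 500 TPM in D, 226 TPM in B and 142 TPM in C. Of these, 4 of 6 lay above both and 1 of 6 below both. Mesenchyme markers, 4 of 6 detected, summed to 83.0 TPM in D, 23.5 TPM in B and 20.3 TPM in C, with 2 of 6 above both and 3 of 6 below both. Of 10 neuron markers 7 lay below both and 2 above both. Below both were also 7 of 7 erythroid markers (402 TPM in D, 2799 TPM in B and 1473 TPM in C). The same held for 6 of 6 sympathetic and chromaffin markers (87.8 TPM in D, 280 TPM in B and 227 TPM in C). Macrophage markers summed to 33.0 TPM in D, 47.9 TPM in B and 41.5 TPM in C, with 5 of 7 detected and Ptprc and Csf1r below the limit, and 5 of the 6 tested lay below both in D. No marker of these lists was at 0 in all libraries. The part of these cells, and of length and GC, in the values of the death genes was not tested.

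**Figure D5:**
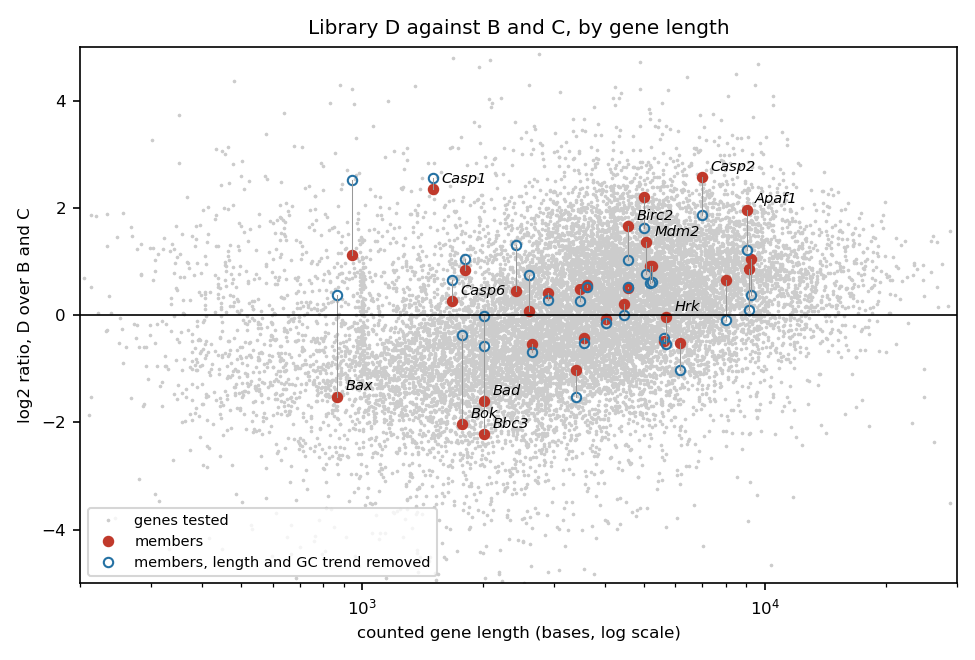
Log2 ratio of library D over B and C (edgeR, TMM) against counted gene length in bases on a log axis, for all genes tested in grey, the 32 members tested in red and the same members after removal of the length and GC trend as open blue circles joined by a line. Long members such as Apaf1 move down towards 0 and short members such as Bax and Bbc3 move up.

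The same fit was run for the other pools. In B against C and D, 0 of 15727 genes passed by edgeR (0.0%), with 174 at an unadjusted p under 0.05 and 1 gene called by DESeq2. No member reached an unadjusted p under 0.05 in B. In C against B and D, 123 genes passed by edgeR (0.782%), 119 higher and 4 lower, and DESeq2 called 172. None of the 32 members was among them by either tool, and 4 had an unadjusted p under 0.05 by edgeR, against 6.91% of all genes tested. Of these, Bbc3 had a log2 ratio of 2.03 ± 0.96 and Bok of 1.78 ± 0.88 in C over B and D, and Casp2 had -2.37 ± 1.02. The fourth was Fas, with 0 counts in C. DESeq2 gave no adjusted p for 5 of the 32 members in C, so it could not call those. With the length and GC trend removed, Bbc3 stood at 0.14 and Bok at 0.61 in C. No gene of the 9 pathway lists passed the edgeR test in any of the 3 fits, and Tradd passed by DESeq2 in C (adjusted p = 0.042). Without the filter on low counts, Nmnat2, Gsdme, Birc6, Trp53inp1 and Stmn2 passed by edgeR in D, and these were singled out after their values were seen.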

How the data were processed

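Per the labels' protocols, 10 ng of total RNA per pool was amplified with a SMARTer low-input kit, whose products do not mark strand. Build GRCm38.p2, Subread and featureCounts 1.4.5 appear, without roles, in the submitters' processing notes. Strand setting and annotation release: not given in the sources used here. The authors deposited raw counts, CPM and RPKM with a gene length for 41388 features per library. The deposited CPM and RPKM equal the values recomputed from the counts. All tests used counts. Symbols were available for 40254 features.

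TPM was computed from count and length over all features, with a pseudocount of 0.1 TPM in log2 ratios. edgeR 4.0.16 in R 4.3.3 was used with filterByExpr and a threshold of 0.05. Standard errors are approximate, from the ratio and its F statistic. Alternatives were DESeq2 1.42.0, its size factors, no filter, and a smooth length and GC trend (mgcv 1.9.3, with GC from GENCODE M21 transcripts) removed through an offset. That trend is taken as deviations from the mean of the libraries, so it leaves 3-library mean ratios nearly as they were. The edgeR script was tested on simulated counts. Exon overlaps came from the deposited coordinates, and promoter windows from RefSeq on GRCm38.p6. With windows on chromosome 18 left out for members, 31 of 34 members were matched.

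Members, lists and tests were chosen with earlier results of these data known. All members are named, and of each pathway list the 3 genes with the highest mean TPM and up to 5 undetected genes; results for some genes that this rule names are not reported here. Other genes named as overlapping or marker genes were chosen for that overlap or list. "Beyond the spread" means a mean log2 ratio above its SD with all libraries on one side. The pools come from separate embryos, but p-values measure only the spread between these 3 libraries. The reads carry no molecular identifiers, so PCR copies are not independent molecules.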

Additional observations from a re-analysis of the deposited data

How the results depend on the processing

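Of 90 alternative values computed, 72 kept their direction and stayed within 1 SD of the reported ratio or within 1.5 times the reported count, 17 moved further and 1 reversed. For the ratios, part of this was fixed in advance. Leaving out 1 of 3 libraries cannot shift a mean ratio beyond 1 SD, and the trend removal leaves mean ratios nearly as they were. The 72 is therefore no measure of how robust the ratios are. From CPM, without gene length, the pro-survival over effector log2 ratio reversed to a mean of 0.30, which library D carried. On that scale the log2 ratios were 4.60 for Bcl2l1 over Bcl2, -1.96 for Mcl1 over Bcl2l1, 6.29 for Bax over Bak1, 4.63 for Bax over Bcl2, 1.22 for Casp9 over Apaf1 and -0.60 for Xiap over Birc2. With a pseudocount of 1 TPM, Bcl2l1 over Bcl2 was 5.05 and Bcl2l2 over Bcl2l1 was -4.49, and Tnfrsf21 over Fas, with its wide SD, was 3.59. At a limit of 5 TPM, 16 members were detected, at 0.5 TPM 27, and without library C 29. In D against B and C, 8 genes passed with DESeq2 size factors, 1534 with no filter (3 of them members) and 688 with DESeq2 (1 of them a member). In B, 3 genes passed with the length and GC trend removed and 1 with DESeq2. In C, 330 passed with the trend removed. The cause of these moves in counts was not tested.

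Leaving out a library could not be run for the lone-library fits, since 1 against 1 has no residual degrees of freedom. No paired analysis was possible because the libraries form a single group. Depth limits Pmaip1, Bik, Casp1, Birc3, Fas, Trp63 and Trp73, which rest on few counts in at least 1 library.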
